A study of Mus musculus with 186 samples.

Results

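The 10 genes described here encode integrin subunits that bind extracellular matrix or latent TGF-beta: Itgav, Itgb1, Itgb3, Itgb5, Itgb6, Itgb8, Itga5, Itga8, Itga11 and Itga1. They were chosen by name, as the rows of the deposited table of expected counts whose Ensembl ID is paired with these symbols in the GENCODE M21 annotation. All 10 were found among 22095 gene IDs, and all 10 passed the filter on low counts in both tissues, where 15825 genes were tested in skin and 15647 in lung. The smallest count of a member in any library was 6, for Itga11 in a lung library.

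Integrins are cell surface receptors built from an alpha and a beta subunit that tie the matrix to the cytoskeleton. The Itgav product pairs with the products of Itgb1, Itgb3, Itgb5, Itgb6 and Itgb8, and these pairs recognise the Arg-Gly-Asp motif of matrix proteins and of the latency peptide that holds TGF-beta inactive. The pairs with the Itgb6 product, typical of epithelium, and with the Itgb8 product are best known for making latent TGF-beta active. The Itgb1 product is the common beta partner of the products of Itga5, a fibronectin receptor subunit, of Itga8, a mesenchymal subunit that binds nephronectin and other ligands, and of Itga1 and Itga11, both collagen receptor subunits.

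All 10 are protein-coding genes, placed here on GRCm38 with GENCODE M21. The genes of the alpha subunits were Itgav (ENSMUSG00000027087) on chromosome 2 at 83724397 to 83806916, plus strand; Itga5 (ENSMUSG00000000555) on chromosome 15 at 103344286 to 103366763, minus strand; Itga8 (ENSMUSG00000026768) on chromosome 2 at 12106632 to 12301922, minus strand. The collagen receptor subunits were Itga1 (ENSMUSG00000042284) on chromosome 13 at 114953096 to 115101964, minus strand, and Itga11 (ENSMUSG00000032243) on chromosome 9 at 62677826 to 62783982, plus strand. The beta subunits were Itgb1 (ENSMUSG00000025809) on chromosome 8 at 128685654 to 128733200, plus strand; Itgb3 (ENSMUSG00000020689) on chromosome 11 at 104608000 to 104670476, plus strand; and Itgb5 (ENSMUSG00000022817) on chromosome 16 at 33829665 to 33949338, plus strand. The partners known for activation of latent TGF-beta were Itgb6 (ENSMUSG00000026971) on chromosome 2 at 60598292 to 60722643, minus strand, and Itgb8 (ENSMUSG00000025321) on chromosome 12 at 119158022 to 119238802, minus strand. The deposited table gives 1 value per gene, so exons, introns and UTRs are not separated.

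Bulk RNA was sequenced from the superior lobe of the lung and from skin punch biopsies of female C57BL/6 mice about 12 weeks old, 93 libraries of each tissue. Bleomycin, a DNA-damaging drug used to induce fibrosis, was given at 10 mg/kg per day under shaved skin between the shoulders, 5 times per week for 2 weeks, and control mice were given PBS the same way. From day 12, SB525334 (30 mpk), an inhibitor of the TGF-beta receptor kinase ALK5, or its oral vehicle was given by mouth. In each tissue the groups were bleomycin with SB525334 on day 21 (9 libraries) and day 28 (8); bleomycin alone on day 7 (7) and day 14 (8); bleomycin with vehicle on day 21 (7), day 28 (7) and day 42 (8); PBS alone on day 7 (8) and day 14 (8); and PBS with vehicle on day 21 (8), day 28 (7) and day 42 (8). Bleomycin was thus given under the skin and not into the lung, and the site of the punch relative to the injections is not given here. No group had PBS with SB525334. The labels do not say whether libraries of a group came from separate mice, so p-values measure the spread between these libraries.

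Total counts per library ran from 14684852 to 43070659 in skin and from 4787607 to 38335420 in lung. The labelled tissues held their defining transcripts: basal keratinocyte markers summed to a median of 6620 CPM, the count scaled to library size, in skin and 15.1 CPM in lung, and alveolar type 2 markers to 130 CPM in skin and 17000 CPM in lung. Of the lung libraries, 17 stood apart by a high share of ribosomal protein transcripts (9, all of day 28), a high share of the 10 most abundant genes (3), keratinocyte transcripts (4) or liver transcripts (1). Results that rest on these libraries are given with and without them. In bulk tissue, fewer cells of a type and less RNA per cell cannot be told apart.

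The sequences just upstream of the start sites of 3 members are shown because these members had the most persistent or the most divergent course across days and tissues, described further on. Each run is the 210 bases that lie 250 to 41 bases before the RefSeq start, 5′ to 3′ on the strand of the gene, from RefSeq on GRCm38.p6, and capitals mark the bases CAGAC, or GTCTG on the other strand, the core of the SMAD binding element.
Itgb6, minus strand, chr2:60722644-60722853: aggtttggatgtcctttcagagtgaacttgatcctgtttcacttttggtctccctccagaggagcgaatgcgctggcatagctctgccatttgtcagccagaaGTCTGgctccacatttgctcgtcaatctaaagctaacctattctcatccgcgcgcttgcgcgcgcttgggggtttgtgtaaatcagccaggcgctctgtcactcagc
Itga8, minus strand, chr2:12301985-12302194: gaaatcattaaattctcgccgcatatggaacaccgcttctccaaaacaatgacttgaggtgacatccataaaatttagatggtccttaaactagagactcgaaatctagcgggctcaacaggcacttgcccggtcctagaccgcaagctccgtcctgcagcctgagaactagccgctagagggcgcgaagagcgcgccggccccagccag
Itga11, plus strand, chr9:62677605-62677814: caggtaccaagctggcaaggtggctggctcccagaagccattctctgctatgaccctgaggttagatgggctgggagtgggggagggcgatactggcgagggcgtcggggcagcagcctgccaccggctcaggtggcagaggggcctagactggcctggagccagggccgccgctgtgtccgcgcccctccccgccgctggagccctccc

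The Itgb6 window held 1 SMAD core and the Itga8 and Itga11 windows 0, while 37.2% of the 32851 promoter windows of the same length in the table held at least 1. None of the 3 windows held the AP-1 motif TGANTCA (5.84% of windows), the GC box GGGCGG (26.7%) or TATAAA (9.56%), each searched on both strands. Of the 10 members 9 had an entry, and Itgb3 had none. Itgb6 had 2 entries, of which only the first is shown and was searched. The GC content of the Itga11 window was 70.0%, that of the Itga8 window 53.3% and that of the Itgb6 window 52.4%, against a median of 51.9% over all windows. A match describes letters only.

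In PBS libraries the level of the 10 genes spanned a wide range, and Itgb1 was the highest of them in both tissues. Per kilobase of exon, Itgb1 had in skin a median of 81.9 CPM per kb over 39 libraries, followed by Itgb5 at 38.0 and Itgav at 23.4. Itgb8 (7.87), Itgb3 (5.69), Itga8 (4.18), Itga11 (4.15), Itga5 (3.97), Itgb6 (2.66) and Itga1 (2.46) followed, and the ranges of neighbours from Itgb8 down overlapped. In lung Itgb1 stood at 202 CPM per kb and Itga8 came next at 76.4, each without overlap with the next gene in the order.
Lung then gave 32.8 CPM per kb for Itgb5, 26.0 for Itga1, 16.8 for Itgav, 13.3 for Itgb6, 8.83 for Itgb3 and 5.86 for Itga5. Itgb8 at 0.708 and Itga11 at 0.375 CPM per kb were the lowest in lung, and all neighbours from Itgb5 to Itga5 in this order overlapped. The ranges over PBS libraries of the 2 tissues did not overlap for Itga8, Itga1, Itgb8 and Itga11, of which Itgb8 and Itga11 were higher in skin. CPM was scaled separately within each tissue. The share of all genes without such overlap was not counted, so nothing particular to the members is shown by this.

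**Figure D1:**
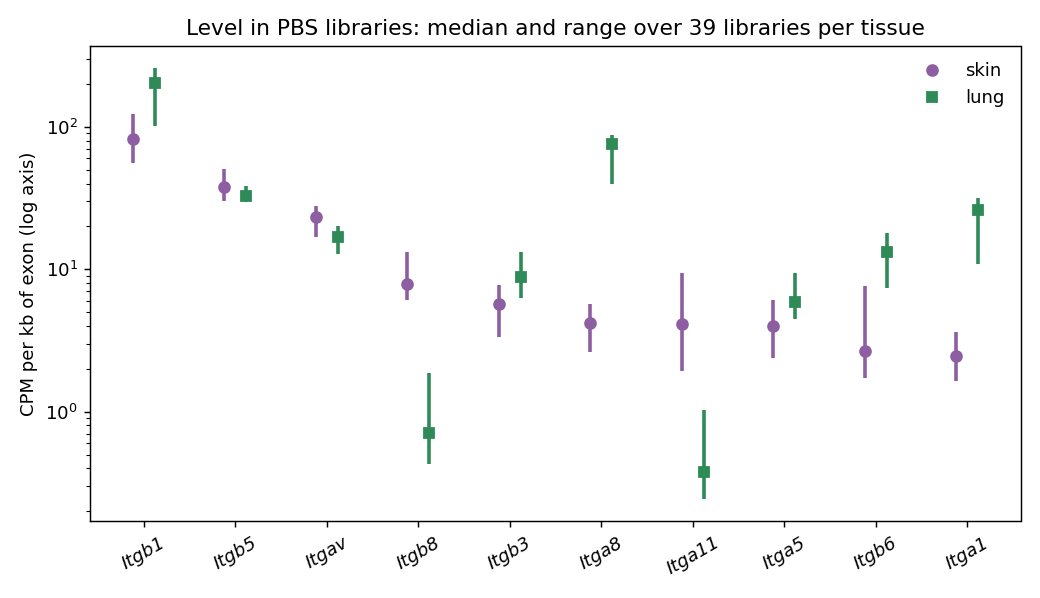
Level of the 10 integrin subunit genes in PBS libraries, in CPM per kb of exon on a log axis, with circles for skin, squares for lung and lines for the range over 39 libraries per tissue. Itga8 stood at a median of 4.18 in skin and 76.4 in lung, and Itga11 at 4.15 in skin and 0.375 in lung.

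In skin, the injections were accompanied by opposite movements among the members, and weeks later by a rise of most of them. On days 7 and 14, Itgb8 was higher and the matrix receptor subunits Itgb3, Itgb5, Itga8 and Itga11 were lower after bleomycin than after PBS, with Itgb6, Itga5 and Itgb1 also higher on day 14. By day 28, Itga11, Itga5, Itgb3, Itgb1, Itgb5 and Itgav were higher and only Itga8 of the 10 was lower. On day 42, Itga11 and Itgb5 were still called higher, and Itgb8 was called higher again.

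Genes were called at an adjusted p below 0.05, taken over all genes tested. On day 7 in skin 1 member was called higher and 4 lower, when 25.5% of all genes tested were called higher and 20.7% lower. Day 14 gave 4 members higher and 4 lower, beside 31.5% and 28.1% of all genes. For day 21 the members numbered 4 higher and 0 lower, beside 20.2% and 21.0% of all genes. Day 28 had 6 higher and 1 lower, against a background of 12.7% higher and 11.6% lower. On day 42, 3 were higher and 0 lower, against 5.28% higher and 4.96% lower. The median log2 fold change of the 10 members was 0.05 on day 7, 0.07 on day 14, 0.22 on day 21, 0.48 on day 28 and 0.22 on day 42, where the median of all genes tested lay between -0.04 and 0.02.

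**Figure D2:**
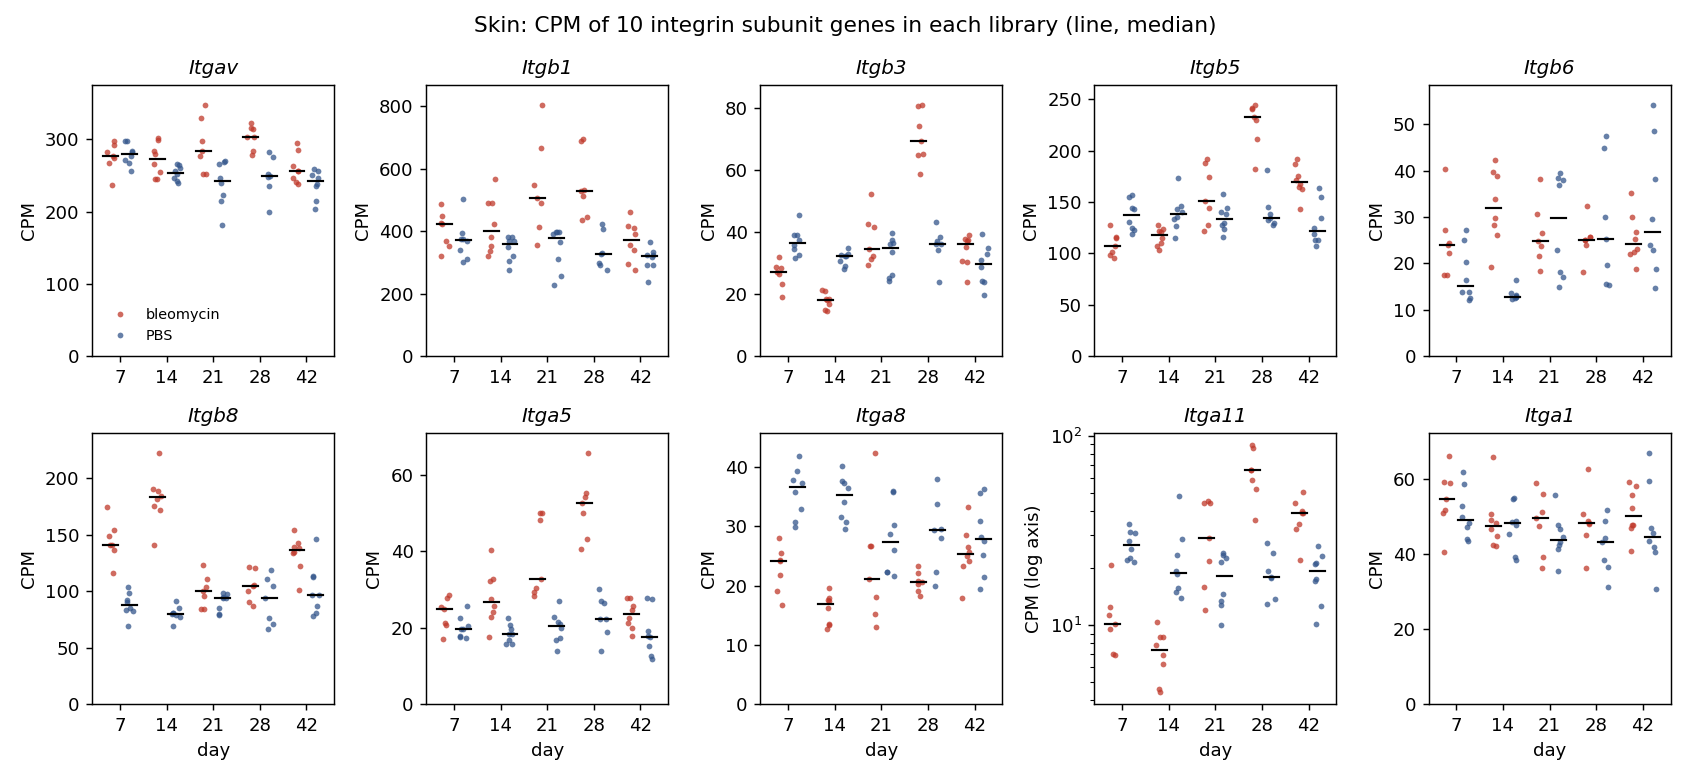
CPM of the 10 members in each skin library by day, bleomycin left and PBS right within each day, with a line at the median and a log axis for Itga11 only. On day 28 the 7 bleomycin libraries of Itgb3 lie between 58.8 and 81.1 CPM, above all 7 PBS libraries.

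Among the beta partners of the Itgav product, Itgb8 was higher in skin on days 7 and 14, while Itgb3 and Itgb5 were lower. Itgb6 and Itgb1 were also called higher on day 14. CPM values are given as lowest, median and highest library of a group. Itgb8 had 116, 141 and 174 CPM after bleomycin on day 7, against 68.8, 88.0 and 104 CPM after PBS, a log2 fold change of 0.71 ± 0.10 (SE; adjusted p = 7.51e-08). On day 14 it had 141, 183 and 222 CPM after bleomycin and 69.6, 80.2 and 91.7 CPM after PBS (log2 fold change 1.18 ± 0.10, adjusted p = 2.11e-16). The groups did not overlap on either day. On days 21 and 28 its log2 fold changes of 0.14 ± 0.10 and 0.19 ± 0.11 did not pass the test, and on day 42 it was called higher again at 0.40 ± 0.10 (adjusted p = 0.0066), with 101, 136 and 154 CPM after bleomycin and 78.0, 96.2 and 146 CPM after PBS. That call was lost with the 2 groups fitted alone (0.39, adjusted p = 0.0939).

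Itgb6 was called in skin on day 14 alone of the 5 days. It had 19.1, 31.9 and 42.2 CPM after bleomycin, against 12.3, 12.9 and 16.4 CPM after PBS (log2 fold change 1.27 ± 0.21, adjusted p = 4.2e-07), and no bleomycin library reached down to the PBS range. Its log2 fold change was 0.49 ± 0.22 on day 7 (adjusted p = 0.0544) and lay between -0.29 and -0.11 from day 21 on, short of the threshold. PBS libraries of those later days spread widely, with 14.7, 26.8 and 54.2 CPM on day 42. The summed level of the 5 basal keratinocyte markers was higher on day 14 too, although 3 of them were called lower and 2 higher. Of all genes tested, 28.1% were called lower and 31.5% higher on that day. The 5 markers summed to 7090, 11300 and 13800 CPM after bleomycin and to 6600, 6770 and 7360 CPM after PBS. On day 7 the sums were 5890, 6570 and 9130 CPM after bleomycin and 3800, 5880 and 6670 CPM after PBS. The part of these markers in the results was not tested.

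Itgb3, whose product with that of Itgav is the classical vitronectin receptor, turned round in skin. It had 14.6, 18.2 and 21.4 CPM after bleomycin on day 14, against 28.2, 32.2 and 34.9 CPM after PBS (log2 fold change -0.82 ± 0.13, adjusted p = 8.38e-08). On day 28 it had 58.8, 69.6 and 81.1 CPM after bleomycin and 23.8, 36.3 and 43.5 CPM after PBS (0.98 ± 0.14, adjusted p = 2.12e-08). The groups were apart on both days, in opposite directions. Day 7 gave a lower level (-0.48 ± 0.13, adjusted p = 0.00189), and days 21 (0.23 ± 0.13) and 42 (0.21 ± 0.13) gave values that missed the threshold. The platelet markers, of which 3 of 6 were testable in skin, had 0 called in either direction on days 7 and 28 and 2 called higher on day 14. Of all genes tested, 31.5% were called higher and 28.1% lower on day 14. These shares were 25.5% and 20.7% on day 7, and 12.7% and 11.6% on day 28.

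Itgb5, another vitronectin-binding partner, followed the same order of days with smaller changes. Its log2 fold change was -0.34 ± 0.09 on day 7 (adjusted p = 0.00208) and -0.26 ± 0.09 on day 14 (adjusted p = 0.00979). By day 28 it had 182, 233 and 245 CPM after bleomycin, against 128, 135 and 181 CPM after PBS, with all 7 bleomycin libraries above the PBS range (0.68 ± 0.10, adjusted p = 4.1e-08). It was still called higher on day 42 at 0.41 ± 0.09 (adjusted p = 0.00106), and its 0.22 ± 0.09 on day 21 was just short of a call (adjusted p = 0.0521). Itgav itself moved little: it was called higher on days 21 and 28, at 0.29 ± 0.06 on each, which is 1.23-fold and 1.22-fold. Of its 7 bleomycin libraries on day 28, 6 lay above the PBS range.

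Itgb1 and Itga5, which together form the main fibronectin receptor, rose in skin from day 14 to day 28. Itga5 had 17.6, 26.6 and 40.2 CPM after bleomycin on day 14, against 15.8, 18.3 and 22.5 CPM after PBS (log2 fold change 0.58 ± 0.15, adjusted p = 0.000698). Day 28 gave 40.6, 52.7 and 65.6 CPM after bleomycin and 14.0, 22.3 and 30.0 CPM after PBS (1.17 ± 0.16, adjusted p = 2.72e-08), and day 21 gave 0.95 ± 0.16 (adjusted p = 1.18e-06). Groups overlapped on day 14 and did not on days 21 and 28. Itgb1 reached 0.27 ± 0.08 on day 14, 0.67 ± 0.09 on day 21 and 0.70 ± 0.09 on day 28, with adjusted p of 0.00321, 3.32e-09 and 1.51e-09, the first of which was 0.0529 without the plate term. Itgb1 on day 28 had 435, 528 and 695 CPM after bleomycin, against 275, 327 and 424 CPM after PBS, with no overlap. On day 42 neither was called, at 0.32 ± 0.15 for Itga5 and 0.23 ± 0.08 for Itgb1 (adjusted p = 0.144 and 0.0547).

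Itga8 was called lower in skin on days 7, 14 and 28. It had 16.8, 24.1 and 28.1 CPM after bleomycin on day 7, against 29.8, 36.6 and 41.8 CPM after PBS (log2 fold change -0.64 ± 0.14, adjusted p = 0.000165). On day 14 it had 12.7, 16.8 and 19.7 CPM after bleomycin and 29.6, 35.3 and 40.1 CPM after PBS (-1.1 ± 0.14, adjusted p = 1.74e-10). Neither day had any overlap. Day 28 gave -0.47 ± 0.15 (adjusted p = 0.0122) with overlapping groups, a call lost in the deposited log2 values (-0.45, adjusted p = 0.0597), while -0.24 ± 0.14 on day 21 and -0.14 ± 0.14 on day 42 were not called.

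The collagen receptor subunit Itga11 had the widest swing of the 10 members in skin. On day 14 it had 4.43, 7.40 and 10.3 CPM after bleomycin, against 13.9, 18.9 and 48.0 CPM after PBS (log2 fold change -1.64 ± 0.27, adjusted p = 3.7e-07). On day 28 it had 35.7, 65.7 and 88.9 CPM after bleomycin, against 12.9, 17.9 and 27.1 CPM after PBS (1.78 ± 0.29, 3.42-fold, adjusted p = 1.1e-06). Both days were without overlap, as was day 7 (-1.28 ± 0.28, adjusted p = 0.000141). Day 42 gave 1.02 ± 0.26 (adjusted p = 0.00707), with 7 of 8 bleomycin libraries above the PBS range. Day 21 gave 0.77 ± 0.27 (adjusted p = 0.0174), and this call was lost with muscle and hair marker sums as terms (0.66, adjusted p = 0.0741), in the 2 groups alone (0.77, adjusted p = 0.0818) and in the deposited log2 values (0.65, adjusted p = 0.073). Itga1, the other collagen receptor subunit, was called on no day in skin, with log2 fold changes between 0.05 and 0.22.

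Fibroblast markers moved with Itga8, Itga11 and Itgb3 during the injections. On day 14 the summed level of these 8 genes was 566, 1040 and 1270 CPM after bleomycin, against 3240, 4100 and 4390 CPM after PBS. Of the 7 tested, 6 were called lower and 0 higher, beside 28.1% and 31.5% of all genes tested. The day 28 sums were 3230, 3520 and 3950 CPM after bleomycin and 1520, 3360 and 4280 CPM after PBS. On that day 2 were called higher and 1 lower, beside 12.7% and 11.6% of all genes tested. Skeletal muscle markers may vary with the depth of a punch, which was not tested. They summed to 1390, 1820 and 3100 CPM after bleomycin and 1990, 4980 and 6400 CPM after PBS on day 14. On day 21 the muscle markers summed to 2680, 4570 and 10400 CPM after bleomycin and 5.91, 831 and 2350 CPM after PBS. Of these 6 markers 5 were called higher, beside 20.2% of all genes tested called higher and 21.0% lower. With muscle and hair marker sums as terms, every skin call on days 7, 14 and 28 was kept, and Itga8 was called lower on day 21 too (-0.47, adjusted p = 0.00751). The part of the fibroblast markers was not tested.

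In lung, Itgb6 was higher and Itga8 lower after bleomycin on every day sampled, and Itgav was higher on days 14 to 42. Itga5 was called higher on days 14, 21 and 28 and Itgb5 on days 21 and 28, and the day 28 values of both depended on 1 library. Itga1 was lower on days 14 and 28. The late rise of Itga11, Itgb3 and Itgb1 seen in skin was not found there: Itga11 and Itgb3 were called only lower in lung, and Itgb1 was called higher on day 21 alone.

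On day 7 in lung 1 member was called higher and 4 lower, when 13.9% of all genes tested were called higher and 17.8% lower. Day 14 gave 3 higher and 3 lower, with 21.0% and 25.4% of all genes. Day 21 had 5 higher and 2 lower, beside 15.9% and 19.4% of all genes. For day 28 the counts were 4 higher and 3 lower, against 19.7% and 18.4%. On day 42, 3 were higher and 1 lower, where 12.6% of all genes were called higher and 6.77% lower. The median log2 fold change of the members was -0.20, 0.11, 0.24, -0.04 and 0.07 from day 7 to day 42, and that of all genes tested lay between -0.03 and 0.02.

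**Figure D3:**
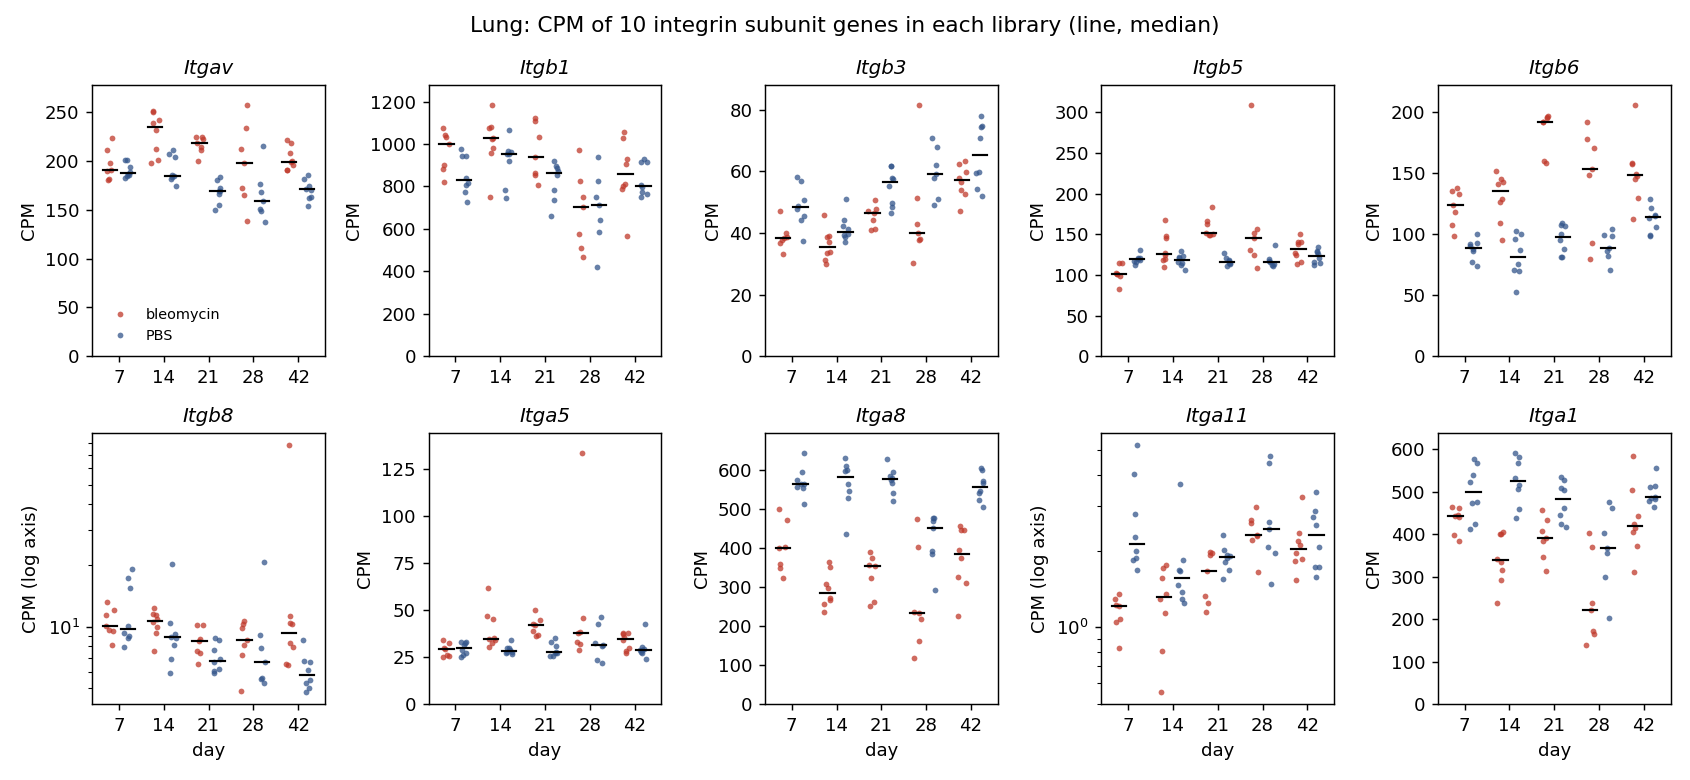
CPM of the 10 members in each lung library by day, bleomycin left and PBS right within each day, with a line at the median and log axes for Itgb8 and Itga11. Single high libraries are visible for Itga5 on day 28 (133 CPM) and for Itgb8 on day 42 (78.0 CPM).

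Itgb6, the epithelial partner in activation of latent TGF-beta, showed the most persistent rise in lung. It had 98.2, 124 and 138 CPM after bleomycin on day 7, against 73.9, 88.6 and 99.95 CPM after PBS (log2 fold change 0.48 ± 0.12, adjusted p = 0.00163). On day 21 it had 158, 192 and 197 CPM after bleomycin and 80.8, 97.5 and 109 CPM after PBS (0.94 ± 0.12, adjusted p = 3.47e-09), the day without overlap. The changes on days 14, 28 and 42 were 0.67 ± 0.12, 0.69 ± 0.13 and 0.42 ± 0.12, with adjusted p of 3.72e-06, 3.49e-05 and 0.00678. Without the 17 libraries that stood apart it was called on all 5 days at 0.43, 0.56, 0.97, 0.60 and 0.48. Alveolar type 2 markers, 6 epithelial genes, summed to 12400, 14800 and 18800 CPM after bleomycin on day 21. After PBS they summed to 16000, 17200 and 18100 CPM, and 0 of 6 were called in either direction. Of all genes tested, 15.9% were called higher and 19.4% lower on that day. Alveolar type 1 markers are not described here, and the part of epithelial markers in the result was not tested.

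Itgav was called higher in lung on days 14 to 42, by small amounts. It had 200, 218 and 225 CPM after bleomycin on day 21, against 150.1, 169 and 183 CPM after PBS (log2 fold change 0.37 ± 0.07, adjusted p = 1.38e-05). On day 42 it had 191, 199 and 221 CPM after bleomycin and 154, 171 and 185.9 CPM after PBS (0.25 ± 0.07, adjusted p = 0.00332). Both days were free of overlap, and days 14 (0.25 ± 0.07) and 28 (0.26 ± 0.07) were called with overlap. Itgb5 was called higher on day 21 (0.43 ± 0.09, adjusted p = 0.00011), with 149, 151 and 183 CPM after bleomycin and 112, 116 and 127 CPM after PBS, and on day 28 (0.44 ± 0.10, adjusted p = 0.0003). Without bleomycin replicate 3 the day 28 value was 0.20 (adjusted p = 0.0203). Its call on day 7, -0.23 ± 0.09 (adjusted p = 0.0453), was lost without the libraries that stood apart (-0.14, adjusted p = 0.31).

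Itgb3 was the partner of Itgav that fell in lung, by small amounts. Its log2 fold change was -0.33 ± 0.11 on day 7 (adjusted p = 0.0168), -0.27 ± 0.11 on day 21 (adjusted p = 0.0453) and -0.37 ± 0.12 on day 28 (adjusted p = 0.00851), and -0.21 ± 0.11 on each of days 14 and 42, not called. On day 28 it had 30.3, 40 and 81.5 CPM after bleomycin and 49.2, 59.3 and 70.7 CPM after PBS. That call was lost without the libraries that stood apart (-0.03, adjusted p = 0.899), and the day 21 call was lost with other size factors (-0.25, adjusted p = 0.0702). The number of members called lower on day 21 also fell from 2 to 1 in 4 other settings. These were no filter on low counts, DESeq2, no plate term and replicate number as a further term. Platelet and megakaryocyte markers, from cells rich in the Itgb3 product, summed to 14.5, 23.9 and 28.2 CPM after bleomycin on day 21. After PBS they summed to 26.0, 31.9 and 61.9 CPM. Of these markers 3 of 6 were called lower, beside 19.4% of all genes tested called lower and 15.9% higher. The part of the platelet markers in the result was not tested.

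Itgb8 was near the bottom of the range in lung and the size of its only call there depended on 1 library. On day 42 it had 6.48, 9.29 and 78.0 CPM after bleomycin, against 4.77, 5.77 and 8.59 CPM after PBS (log2 fold change 1.51 ± 0.29, adjusted p = 3.27e-05). The highest value came from bleomycin replicate 1, in which the 5 liver markers summed to 18100 CPM, against at most 1.28 CPM in PBS libraries of that day. Without this library the change was 0.52 and not called (adjusted p = 0.0625). Without all 17 libraries that stood apart it was 0.52 and called (adjusted p = 0.0295). On the other days its log2 fold change lay between -0.21 and 0.25 with SE of 0.28 to 0.31.

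Itga8 was called lower in lung on all 5 days. It had 323, 400.1 and 499 CPM after bleomycin on day 7, against 513, 563 and 643 CPM after PBS (log2 fold change -0.50 ± 0.14, adjusted p = 0.00305). On day 14 it had 236, 284 and 364 CPM after bleomycin and 436, 580.3 and 629 CPM after PBS (-0.95 ± 0.13, adjusted p = 7.58e-09). Day 42, the last day sampled, gave 227, 385 and 457 CPM after bleomycin and 504, 556 and 605 CPM after PBS (-0.59 ± 0.13, adjusted p = 0.00038). Groups did not overlap on days 7, 14, 21 (-0.79 ± 0.14) and 42, and overlapped on day 28 (-0.72 ± 0.14). All 5 calls were kept without the libraries that stood apart, at -0.51, -0.99, -0.77, -0.51 and -0.51. The 8 fibroblast markers summed to 1150, 1280 and 1530 CPM after bleomycin and 2070, 2370 and 2580 CPM after PBS on day 14, although 2 of the 8 were called lower and 1 higher, beside 25.4% of all genes tested called lower and 21.0% higher. Their part in the result was not tested.

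The fibronectin receptor subunit Itga5 rose in lung on days 14 and 21, and its day 28 value depended on 1 library. It had 36.4, 42.1 and 50.2 CPM after bleomycin on day 21, against 25.4, 27.5 and 35.3 CPM after PBS, without overlap (log2 fold change 0.53 ± 0.17, adjusted p = 0.0107). Day 14 gave 0.47 ± 0.17 (adjusted p = 0.0149). On day 28 it had 28.6, 37.8 and 133 CPM after bleomycin and 22.1, 31.7 and 46.5 CPM after PBS (0.63 ± 0.18, adjusted p = 0.00427). Without bleomycin replicate 3 of that day, which held the 133 CPM, the change was 0.15 (adjusted p = 0.409). Without the 17 libraries that stood apart, which do not include replicate 3, it was 1.11 and called. Itgb1 was called on day 21 (0.24 ± 0.09, adjusted p = 0.024), with 808, 937 and 1121 CPM after bleomycin and 663, 863 and 919 CPM after PBS, and this call was lost without the plate term (0.22, adjusted p = 0.203).

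Of the collagen receptor subunits in lung, Itga1 was called lower on days 14 and 28. Itga1 had 238, 338 and 406 CPM after bleomycin on day 14, against 439, 524 and 591 CPM after PBS, without overlap (log2 fold change -0.63 ± 0.13, adjusted p = 2.77e-05). Day 28 gave the same -0.63 ± 0.14 (adjusted p = 0.000262) with overlap, and the other days lay between -0.28 and -0.18, not called. Endothelial markers moved with Itga1: the 6 genes summed to 1820, 2040 and 2390 CPM after bleomycin and 2470, 2990 and 3310 CPM after PBS on day 14. All 6 were called lower, beside 25.4% of all genes tested called lower and 21.0% higher. Macrophage markers moved the other way, with 617, 720 and 773 CPM after bleomycin and 320, 354 and 548 CPM after PBS. The part of these markers was not tested.

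Itga11 was scarce in lung, and its early fall there was partly carried by libraries with skin transcripts. On day 7 it had 0.826, 1.21 and 1.35 CPM after bleomycin, against 1.68, 2.13 and 5.22 CPM after PBS (log2 fold change -1.24 ± 0.22, adjusted p = 4.87e-06), without overlap. Day 14 gave -0.49 ± 0.20 (adjusted p = 0.0412). Keratinocyte markers, of which 4 of the 17 libraries had excess, summed to 8.37, 12.1 and 30.4 CPM after bleomycin and 12.4, 20.3 and 860 CPM after PBS on day 7. Without the libraries that stood apart the day 7 change was -0.83 and called, and the day 14 change was -0.18 and not called (adjusted p = 0.428). Leaving out PBS replicate 6 of day 14 alone gave -0.25 on that day (adjusted p = 0.315). From day 21 its log2 fold change lay between -0.22 and -0.14, not called.

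Lung values of day 28 need the most care, since 9 of the 22 libraries of that day had a high share of ribosomal protein transcripts. These were 5 of 8 bleomycin libraries with SB525334, 3 of 7 with vehicle and 1 of 7 PBS libraries. With the bleomycin and PBS groups of that day fitted alone, 0 of 7 calls were kept, with adjusted p between 0.0639 for Itgb6 and 0.293 for Itga5. Within sequencing plate 2, which held 2 libraries of each group, the difference was -0.23 for Itga5, -0.06 for Itgb5 and 0.02 for Itga8, against 0.70, 0.54 and -1.12 within plate 1, which held 5 of each. On the other days of both tissues, every called bleomycin effect had the same sign in both plates.

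**Figure D4:**
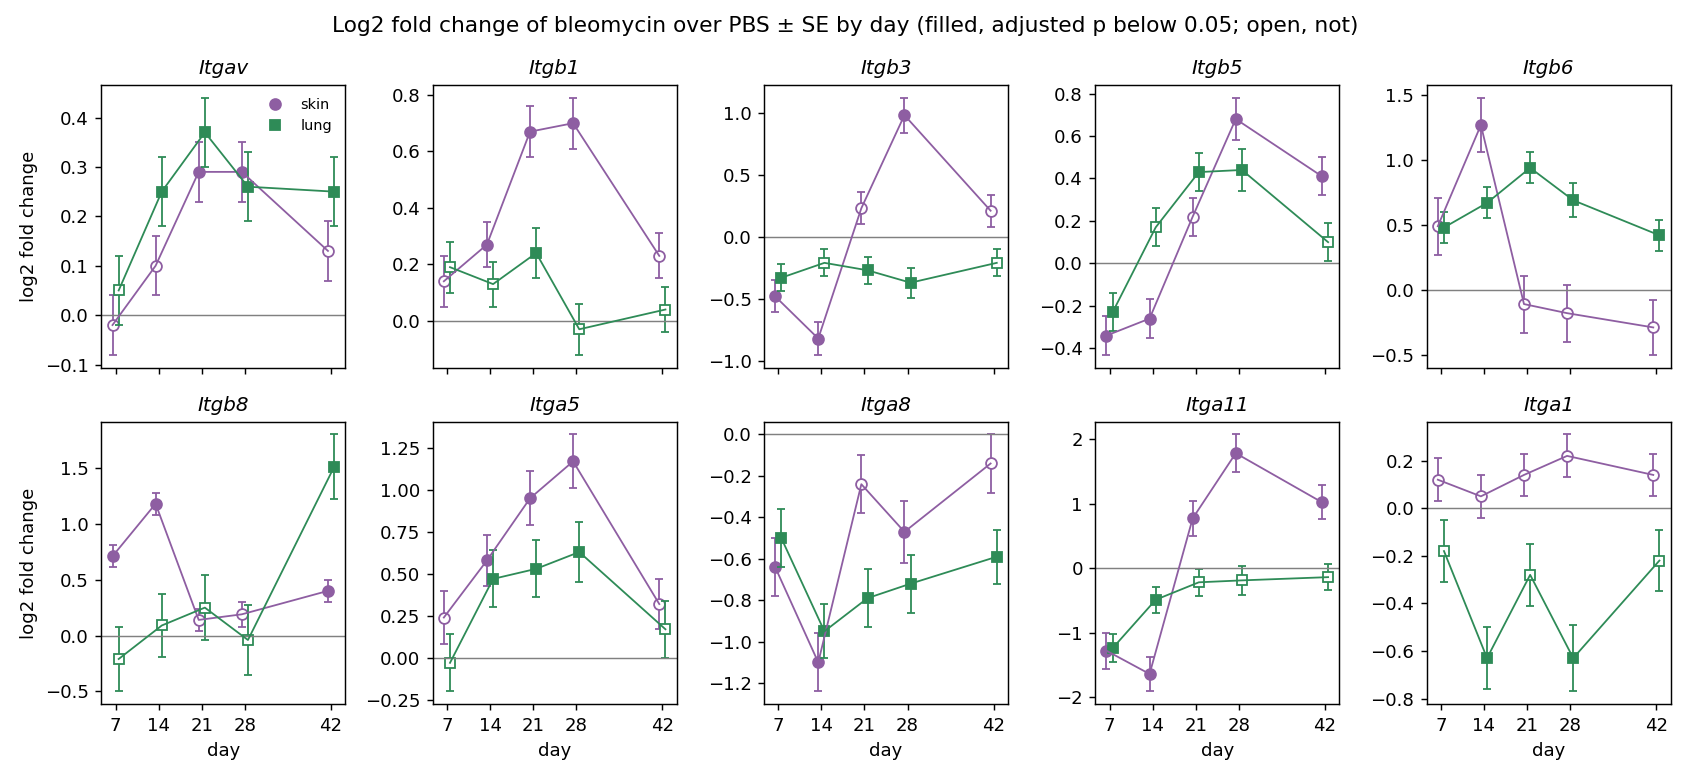
Log2 fold change of bleomycin over PBS with its SE for each member by day (x axis in days), circles for skin and squares for lung, filled where the adjusted p was below 0.05 and open where not. Itga11 moves to 1.78 in skin on day 28 while it stays at -0.19 in lung, and Itga8 lies below 0 in both tissues on every day.

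Some bleomycin effects differed between the tissues by a direct test of the difference, skin minus lung. This test treated lung and skin libraries as independent, since the labels match no mice between tissues. On day 28, the effect on Itga11 was larger in skin by 1.91 ± 0.37 on the log2 scale (adjusted p = 3.22e-05), that on Itgb3 by 1.33 ± 0.18 (adjusted p = 1.81e-09), that on Itga1 by 0.81 ± 0.17 (adjusted p = 6.81e-05) and that on Itgb1 by 0.70 ± 0.12 (adjusted p = 4.84e-06). The effect on Itgb6 was smaller in skin by 0.90 (difference -0.90 ± 0.26, adjusted p = 0.00544) on that day, by 1.1 (-1.1 ± 0.25, adjusted p = 0.000295) on day 21 and by 0.71 (-0.71 ± 0.24, adjusted p = 0.0375) on day 42, the last not called without the filter on low counts (-0.69, adjusted p = 0.0527). On day 14 the difference was 1.05 ± 0.30 for Itgb8 and 0.63 ± 0.15 for Itga1, and -1.20 ± 0.35 for Itga11, -0.65 ± 0.17 for Itgb3 and -0.47 ± 0.13 for Itgb5. For Itga8 the difference passed on day 21 alone (0.50 ± 0.20, adjusted p = 0.0432), and not without the filter on low counts (adjusted p = 0.0555). Day 21 also gave 0.94 ± 0.36 for Itga11, 0.44 ± 0.17 for Itgb3 and 0.38 ± 0.12 for Itgb1, the last not called without the plate term (adjusted p = 0.121). For Itgav and Itga5 it passed on no day. On day 28 the 95% interval of the difference ran from 0.04 to 0.99 for Itga5 and from -0.19 to 0.18 for Itgav.

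Counted over the members, the difference was called higher in skin for 1 and lower for 0 on day 7, when 8.62% and 7.98% of the 16585 genes tested jointly were. Day 14 gave 2 higher and 3 lower, with 15.6% and 16.7% of all genes. Day 21 had 4 and 1, with 13.5% and 16.6%. Day 28 had 4 and 1 as well, with 10.6% and 15.4%. Day 42 gave 1 higher, Itga11 at 1.17 ± 0.34 (adjusted p = 0.0114), and 2 lower, with 4.98% and 7.13%. Of these 2, Itgb8 (-1.11 ± 0.30) was not called without the lung libraries that stood apart (-0.10, adjusted p = 0.803), and the same step took the Itgb6 difference of day 28 to -0.78 (adjusted p = 0.0586). Without lung bleomycin replicate 3 of day 28, Itga5 (0.98, adjusted p = 0.000253) and Itgb5 (0.43, adjusted p = 0.0047) were called as well.

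The effect of bleomycin on day 42 was set against that on day 14, the end of the injections, by the same kind of test. In skin 4 members had a higher effect on day 42: Itga11 by 2.66 ± 0.38 (adjusted p = 2.75e-08), Itgb3 by 1.03 ± 0.18 (adjusted p = 2.81e-06), Itga8 by 0.96 ± 0.19 (adjusted p = 3.24e-05) and Itgb5 by 0.67 ± 0.13 (adjusted p = 1.07e-05). Lower effects were found for Itgb6 (-1.56 ± 0.30, adjusted p = 1.32e-05) and Itgb8 (-0.78 ± 0.14, adjusted p = 7.19e-06). Of all genes tested in skin, 23.0% had a higher and 27.9% a lower effect. In lung, where the shares were 10.7% and 4.67%, Itgb8 alone was called (1.42 ± 0.40, adjusted p = 0.00876), and 0 members without bleomycin replicate 1 of day 42. Without all 17 libraries that stood apart, Itga8 (0.47, adjusted p = 0.0257) and Itga1 (0.51, adjusted p = 0.00448) were called in lung and Itgb8 (0.16) was not.

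The ALK5 inhibitor was tested against vehicle after bleomycin. In skin on day 28, Itga11, Itgb3, Itgb5 and Itgb1, all higher after bleomycin than after PBS, were lower with SB525334. Itga1 was also lower by a small amount, while Itgb8 was higher. The same bleomycin libraries with vehicle served in both comparisons. A high level in that group alone would give both signs, so the comparisons are not independent. On day 21, Itgb3 and Itga8 were lower and Itgb8 higher. In lung no member was called on day 21, and the 4 calls of day 28 rested on 1 library.

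On day 28 in skin 1 member was called higher and 5 lower, when 12.2% of all genes tested were called higher and 11.6% lower. Itgb3 had 24.01, 42.8 and 55.9 CPM with SB525334, against 58.8, 69.6 and 81.1 CPM with vehicle, without overlap (log2 fold change -0.78 ± 0.13, adjusted p = 5e-06). Itga11 had 8.79, 22.6 and 48.8 CPM with SB525334, against 35.7, 65.7 and 88.9 CPM with vehicle (-1.30 ± 0.27, adjusted p = 0.000221). Of the 8 treated libraries of Itga11, 6 lay below the vehicle range, and its PBS libraries had 12.9, 17.9 and 27.1 CPM. Itgb5 had 118, 148 and 199 CPM with SB525334, against 182, 233 and 245 CPM with vehicle (-0.57 ± 0.09, adjusted p = 2.97e-06), 7 of 8 below the vehicle range. Itgb1 changed by -0.35 ± 0.09 (adjusted p = 0.00168), with 347, 399.9 and 591 CPM with SB525334 and 435, 528 and 695 CPM with vehicle, and Itga1 by -0.24 ± 0.09 (adjusted p = 0.0436).

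Itgb8 went the other way at 0.29 ± 0.11 on day 28 (adjusted p = 0.036), with 92.8, 127 and 178 CPM with SB525334 and 86.9, 104 and 121 CPM with vehicle. The Itgb8 and Itga1 calls of that day were lost in the deposited log2 values (adjusted p = 0.121 and 0.178) and without the filter on low counts (adjusted p = 0.0547 and 0.0509). Itga5 changed by -0.37 ± 0.15, short of the threshold (adjusted p = 0.069), and was called with muscle and hair marker sums as terms (-0.55, adjusted p = 0.00336). Itgav (-0.09 ± 0.06), Itga8 (-0.25 ± 0.14) and Itgb6 (-0.52 ± 0.22) were not called. Beside these results, the fibroblast markers summed to 2240, 2560 and 2980 CPM with SB525334 and 3230, 3520 and 3950 CPM with vehicle. Of these markers 3 of 7 were called lower, beside 11.6% of all genes tested called lower and 12.2% higher. The basal keratinocyte markers summed to 5750, 6260 and 9300 CPM with SB525334 and 3920, 4630 and 5850 CPM with vehicle. The part of both marker lists in the results was not tested.

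**Figure D5:**
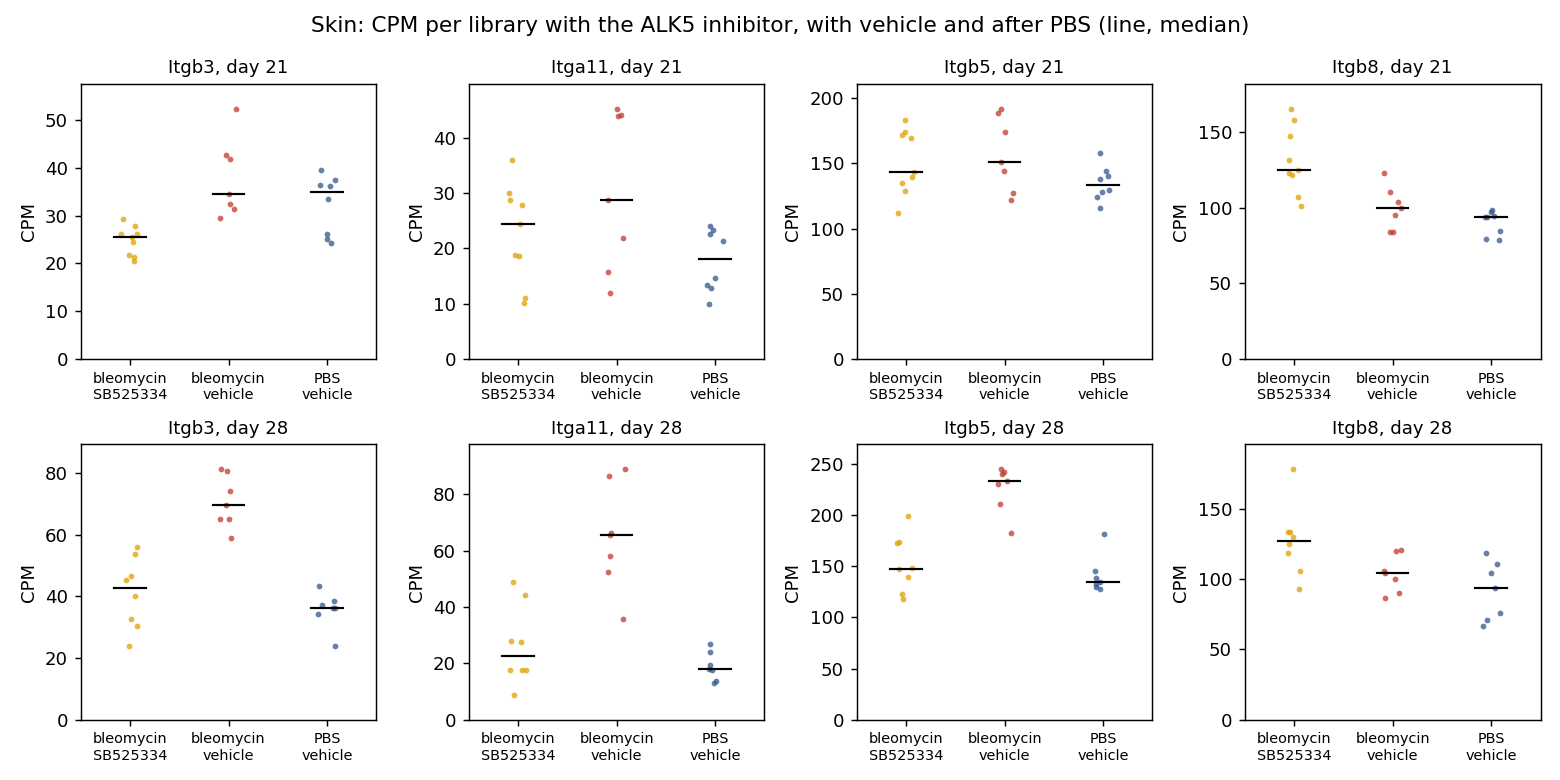
CPM of Itgb3, Itga11, Itgb5 and Itgb8 in each skin library on days 21 (top) and 28 (bottom), with SB525334 left of vehicle after bleomycin and PBS with vehicle at the right, and a line at the median. On day 28 the medians of Itga11 are 22.6, 65.7 and 17.9 CPM in this order.

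On day 21 in skin 1 member was called higher and 2 lower, when 5.81% of all genes tested were called higher and 6.02% lower. Itgb3 had 20.4, 25.6 and 29.2 CPM with SB525334, against 29.5, 34.5 and 52.4 CPM with vehicle, without overlap (log2 fold change -0.61 ± 0.13, adjusted p = 0.000483). Itga8 had 12.9, 16.0 and 19.9 CPM with SB525334 and 13.1, 21.1 and 42.4 CPM with vehicle (-0.55 ± 0.14, adjusted p = 0.0043), a call lost in the 2 groups alone (-0.51, adjusted p = 0.106). Itgb8 had 101, 125 and 166 CPM with SB525334 and 84.2, 100.2 and 123 CPM with vehicle (0.40 ± 0.10, adjusted p = 0.00501). Itga11 (-0.41 ± 0.26) and Itgb5 (-0.05 ± 0.09) were not called on this day, and whether the effect of the inhibitor differed between days was not tested.

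In lung on day 21, 0 of 10 members were called in either direction, with log2 fold changes between -0.22 and 0.16, when 0.179% of all genes tested were called higher and 0.224% lower by edgeR's quasi-likelihood test. At an unadjusted p under 0.05 the count was 0 as well, and DESeq2 also called 0 members. On day 28, 0 were called higher and 4 lower, against 2.64% and 5.73% of all genes. The 4 were Itga5 (-0.52 ± 0.17, adjusted p = 0.0482), Itgb3 (-0.35 ± 0.11, adjusted p = 0.0377), Itgb1 (-0.27 ± 0.09, adjusted p = 0.0372) and Itgav (-0.22 ± 0.07, adjusted p = 0.0324). Itga5 had 20.0, 35.9 and 54.6 CPM with SB525334, against 28.6, 37.8 and 133 CPM with vehicle. Without vehicle replicate 3 the values were -0.03, -0.16, -0.21 and -0.14 in the same order, and 0 were called. That library also had the highest summed level of ALK5-SMAD target genes (1715 CPM) and the lowest of fibroblast markers (564 CPM) in its group, and was not among the 17 that stood apart.

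Of 22 ligands and latent TGF-beta carriers, 6 were called higher and 11 lower in skin on day 14 after bleomycin, and 14 higher and 1 lower on day 21. Over all genes tested in skin, 31.5% were called higher and 28.1% lower on day 14, and 20.2% higher and 21.0% lower on day 21. Fn1, fibronectin, the main ligand of the Itga5 product, had a log2 fold change of -1.40 ± 0.23 on day 14 and 1.94 ± 0.25 on day 28 in skin, the same order of signs as Itga11 and Itgb3. Spp1, osteopontin, an Arg-Gly-Asp ligand, was higher at 4.41 ± 0.58 on day 14, and Npnt, nephronectin, the ligand of the Itga8 product, was lower at -0.81 ± 0.18. In lung 14 of 22 ligands were called higher and 2 lower on each of days 14 and 21, beside 21.0% higher and 25.4% lower of all genes on day 14 and 15.9% higher and 19.4% lower on day 21. Day 21 had Spp1 at 3.89 ± 0.34, Tnc, tenascin C, at 3.02 ± 0.37 and Npnt at -0.28 ± 0.09. With SB525334 on day 28, 2 ligands were called higher and 6 lower in skin, beside 12.2% higher and 11.6% lower of all genes. In lung 0 were called higher and 11 lower, beside 2.64% higher and 5.73% lower of all genes. The lowest, median and highest ligand sums there overlapped, at 4140, 5300 and 7860 CPM with SB525334 and 4080, 8820 and 18800 CPM with vehicle, and this count was not refitted without vehicle replicate 3, the library with the highest sum.

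Of 24 adaptors and activators that couple integrins to actin, 6 were called higher and 9 lower in skin on day 14. On that day 31.5% of all genes were called higher and 28.1% lower. Day 28 gave 8 higher and 2 lower, when 12.7% of all genes were called higher and 11.6% lower. Fermt2, the kindlin of mesenchymal cells, had -0.58 ± 0.09 on day 14 and 0.54 ± 0.09 on day 28 in skin, while Fermt1, the kindlin of epithelium, had -0.54 ± 0.09 on day 28. In lung the counts were 4 higher and 11 lower on day 14 and 3 higher and 6 lower on day 21, against the same shares of all genes as given for the ligands. Of 15 other integrin subunits tested in skin on day 14, when 31.5% of all genes were called higher and 28.1% lower, 6 were called higher and 1 lower, among them Itgb2 of leukocytes at 0.81 ± 0.22. In lung on day 14 the count was 5 higher and 4 lower of 16, beside 21.0% higher and 25.4% lower of all genes. Itgb2 was at 1.04 ± 0.14 in lung on day 21. ALK5-SMAD target genes were called higher for 3 and lower for 0 of 7 in skin on day 28, beside 12.7% and 11.6% of all genes. With SB525334 on that day 1 was called higher and 2 lower, beside 12.2% higher and 11.6% lower of all genes.

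Single genes named beside the members differed in skin on day 28 as follows. Itgb4 (-0.61 ± 0.15), Itga3 (-0.49 ± 0.14) and Itga2 (-0.47 ± 0.17), integrin subunits of epithelium, were called lower, and Itga6 (-0.26 ± 0.12), the partner of Itgb4, was not called. Ltbp1, which anchors latent TGF-beta in the matrix, was called lower (-0.41 ± 0.16), Tgfb1 was not called (0.10 ± 0.16), and Vtn, vitronectin, was called higher (0.60 ± 0.19). Of the adaptors, Ilk was called higher (0.29 ± 0.06) and Tln1, talin, was not called (0.08 ± 0.09), and the SMAD target Pmepa1 was called higher (0.69 ± 0.17). In lung on day 21 Itga2, Itga3, Itga6, Itgb4, Tgfb1, Ltbp1, Vtn, Ilk, Tln1 and Pmepa1 were not called, with log2 fold changes between -0.74 for Vtn and 0.29 for Pmepa1.

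Over the 93 libraries of a tissue, some members ran together. In skin the Pearson correlation of log2 CPM with the plate effect removed was 0.91 for Itgb1 with Itga5, 0.87 for Itgb5 with Itga11, 0.83 for Itgav with Itgb1 and 0.72 for Itgb3 with Itga11, and -0.67 for Itgb8 with Itga8. In lung it was 0.86 for Itga8 with Itga1, 0.72 for Itgb5 with Itga5 and -0.57 for Itgb6 with Itga8. These values describe libraries that share groups, plates and depth. Of all genes tested, the most alike to Itgb6 were Bzw1, Kpna2 and Atp5b in skin (0.85 each) and Ndnf, Serpinb9 and Nrcam in lung (0.91, 0.91 and 0.87). For Itgb8 they were Car12, Wfdc12 and Slpi in skin (0.86, 0.83 and 0.83) and Gcnt1, Srd5a1 and Slc40a1 in lung (0.77, 0.74 and 0.73). Those closest to Itga8 were Gpm6a, Pcolce2 and Foxp2 in skin (0.92, 0.90 and 0.90) and Specc1l, Plxdc2 and Synm in lung (0.96 each). Itga11 ran with Rassf8, Pxdn and Gpr153 in skin (0.91, 0.89 and 0.88) and with Nhsl1, Palld and Igfbp5 in lung (0.72, 0.71 and 0.71).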

How the data were processed

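Stranded total RNA libraries, depleted of ribosomal RNA, were sequenced from 186 samples, 93 per tissue in 12 groups of 7 to 9. The authors deposited expected counts per gene for 22095 Ensembl IDs, made with RSEM on GRCm38 per the submitters' processing notes. A second table deposited by the authors holds log2 CPM for 16160 IDs, corrected for plate with edgeR per the submitters' processing notes, and served as an alternative only. Versions of these tools are not given in the sources used here. Rounding to whole numbers left 83.7% of the values as they were. GENCODE M21 names matched 21852 IDs. Library totals had a median of 19677332 in skin and 19802457 in lung, and 0 pairs of libraries were identical.

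Each tissue was fitted once over its 12 groups with sequencing plate as a term, in R 4.3.3 with edgeR 4.0.16: filterByExpr, TMM scaling, quasi-likelihood F test, and Benjamini-Hochberg adjustment over all genes tested. Genes were called at an adjusted p below 0.05. An approximate SE was obtained by dividing the log2 fold change by the root of F. Skin minus lung came from a joint fit with plate within tissue, in which lung and skin libraries were treated as independent. A link between lung and skin of the same mouse, if there was one, was not modelled. CPM values of the members use TMM library sizes, and marker sums use total counts. Alternatives were RLE size factors, no filter, DESeq2 1.42.0, no plate term, a replicate block, limma 3.58.1 on the deposited log2 values, the 2 groups alone, each plate alone, and, added after seeing the data, leaving out the libraries that stood apart or single outlying libraries, and muscle and hair marker sums as terms. The fit was tested on simulated data. Figures used Python 3.11.15, pandas 2.3.3 and matplotlib 3.10.9.

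The members and gene lists were chosen with earlier results of these data known. All members were named; genes of other lists (integrins, ligands, adaptors and ALK5-SMAD targets) were named by a fixed choice, of which 1 is not reported here, shown on the days where they matter beside the members, and the genes most alike to a member were the 3 with the highest correlation. Libraries stood apart where the share of ribosomal protein transcripts was over 3 times the lung median, that of the 10 highest genes over 2 times, basal keratinocyte markers over 20 times or liver markers over 1000 times. The labels do not match mice between tissues. Expected counts carry counting error, which is largest for Itga11 and Itgb8 in lung.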

Additional observations from a re-analysis of the deposited data

Results flagged for a closer look

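Of 240 combinations of member and group, 18 had a library far from the rest of its group, and each of the 18 was the highest of its group. The rule flags about 1 group in 20 for normally distributed values. It was applied to CPM without taking logs, where that rate need not hold, so an excess over chance was not shown. Lung bleomycin replicate 3 of day 28 (vehicle) held 3 of them: Itga5 at 133 CPM (next highest 45.7), Itgb5 at 309 CPM (next 157) and Itgb3 at 81.5 CPM (next 51.2). Lung bleomycin replicate 1 of day 42 held Itgb8 at 78.0 CPM (next 11.2), and replicate 6 of that group Itga11 at 3.26 CPM (next 2.35). Skin bleomycin replicate 3 of day 7 held Itgb6 at 40.3 CPM (next 27.2) and Itga11 at 20.7 CPM (next 12.4), and its hair shaft markers summed to 614 CPM. Skin bleomycin replicate 6 of day 14 held Itga1 at 65.9 CPM (next 50.9).

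Among PBS lungs, replicate 6 of day 14 had Itgb8 at 20.3 CPM (next 10.4) and Itga11 at 3.68 CPM (next 1.85), with keratinocyte markers at 770 CPM, and replicate 8 of that day had Itga5 at 34.0 CPM (next 29.7). Replicate 6 of day 28 had Itgb8 at 20.8 CPM (next 9.11) and Itgb5 at 136 CPM (next 120), and replicate 6 of day 42 had Itga5 at 42.9 CPM (next 30.6). Among PBS skins, replicate 8 of day 7 had Itgb1 at 502 CPM (next 392.4), replicate 1 of day 14 had Itga11 at 48.0 CPM (next 28.4), replicate 4 of day 14 had Itgb6 at 16.4 CPM (next 13.5), and replicate 4 of day 28 had Itgb5 at 181 CPM (next 145). Leaving out a single one of the skin libraries changed no call of a bleomycin effect.

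Bleomycin effects that differed between day 42 and day 14 of a tissue passed a test of the difference for 6 members in skin and 1 in lung. Of all genes tested in skin, 23.0% had a higher and 27.9% a lower effect on day 42. In lung these shares were 10.7% and 4.67%. In skin the log2 difference, day 42 minus day 14, was 2.66 for Itga11, 1.03 for Itgb3, 0.96 for Itga8, 0.67 for Itgb5, -0.78 for Itgb8 and -1.56 for Itgb6. In lung it was 1.42 for Itgb8, which rests on the library with liver transcripts.

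Between tissues, skin minus lung, the difference of the bleomycin effect was 0.89 for Itgb8 on day 7. On day 14 it was 1.05 for Itgb8, 0.63 for Itga1, -0.47 for Itgb5, -0.65 for Itgb3 and -1.20 for Itga11. On day 21 it was 0.94 for Itga11, 0.50 for Itga8, 0.44 for Itgb3, 0.38 for Itgb1 and -1.1 for Itgb6. On day 28 it was 1.91 for Itga11, 1.33 for Itgb3, 0.81 for Itga1, 0.70 for Itgb1 and -0.90 for Itgb6. On day 42 it was 1.17 for Itga11, -0.71 for Itgb6 and -1.11 for Itgb8. All of these passed the adjusted threshold over all genes, and their tests stand with the comparisons above.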

How the results depend on the processing

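Of 95 values called over all comparisons, RLE size factors kept 92, DESeq2 93, the replicate block 89, no filter 85 and no plate term 84; none of these turned a sign. The deposited log2 values kept 65 of 76, the 2 groups alone 52 of 69, and leaving out the libraries that stood apart 44 of 53. The number of members called moved by more than 1.5 times in 6 comparisons. In lung on day 28 it was 7 for bleomycin and 0 with the 2 groups alone. With SB525334 in lung on day 28 it was 4, and 1 without the filter, without the plate term and without the libraries that stood apart, and 0 in the deposited log2 values, with the 2 groups alone and without vehicle replicate 3. For day 42 minus day 14 in lung it was 1, and 0 in the deposited log2 values and without bleomycin replicate 1, and 2 without the libraries that stood apart. With muscle and hair marker sums as terms it was 6 instead of 3 for skin on day 42 and 5 instead of 3 for SB525334 in skin on day 21. For skin minus lung on day 21 it was 5, and 3 without the plate term and with the replicate block. Signs turned in 5 values, all within plate 2 of lung on day 28 with 2 libraries per group: -0.23 for Itga5, -0.06 for Itgb5 and 0.02 for Itga8 after bleomycin, and 0.33 for Itga5 and 0.10 for Itgb3 with SB525334. The cause was not tested. Whether replicate numbers pair the libraries could not be decided. The lowest correlation of same-numbered libraries was below 0.1 in every comparison, but a lowest value cannot exclude pairing. Their median correlation ran from -0.196 for bleomycin against PBS in lung on day 28 to 0.205 on day 7. For libraries of other numbers the medians of these comparisons were 0.006 and 0.014. The joint fit was not run with the deposited log2 values or the 2 groups alone. Depth limits Itga11 and Itgb8 in lung most, with counts down to 6 and 17.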

Other observations

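Other cell types of the tissues also moved, described here without a link to the integrins. Macrophage markers were called higher for all 6 genes in skin on day 21, with sums of 1040, 1270 and 1780 CPM after bleomycin and 310, 804 and 1060 CPM after PBS, and for all 6 in lung on that day, with 561, 704 and 815 CPM after bleomycin and 342, 360 and 370 CPM after PBS. Of all genes tested, 20.2% were called higher in skin and 15.9% in lung on that day. Smooth muscle and pericyte markers were called lower for 5 of 7 in skin on day 14 and higher for 0, with sums of 317, 346 and 377 CPM after bleomycin and 554, 608 and 771 CPM after PBS. Of all genes tested, 28.1% were called lower and 31.5% higher there. Platelet and megakaryocyte markers in lung on day 28 were called higher with SB525334 for 4 of 6 genes, with sums of 45.5, 74.6 and 106 CPM with SB525334 and 17.2, 29.9 and 75.5 CPM with vehicle. Of all genes tested, 2.64% were called higher and 5.73% lower in that comparison. Both of its groups held libraries with a high share of ribosomal protein transcripts. The count was not refitted without these or without vehicle replicate 3.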
